A study of Homo sapiens with 12 samples.

Results

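The genes described here were the Kelch-like adaptors, KLHL6 among them, together with CUL3, its RING partner RBX1 and the related adaptor KEAP1. They were chosen by name: protein-coding entries on chromosomes 1 to 22 or X whose symbol was KLHL followed by a number, or CUL3, KEAP1 or RBX1. This gave 40 genes of the 60675 in the table. The rule itself used no expression value, but it was set with earlier results of these data known. Of the 40, 29 had enough reads to be tested. RNA was sequenced from cells of the line U-2932, grown from a human lymphoma of the diffuse large B cell kind, which stably expressed a Roquin2 construct. The groups were cells with the Y691F form of Roquin2 given 10 µg/ml of F(ab')2-IgM over 12 h (Y691F with IgM), cells with wild-type Roquin2 given the same treatment (WT with IgM), Y691F cells left untreated and WT cells left untreated. F(ab')2-IgM is an antibody fragment against surface IgM that engages the B cell receptor. Each group held 3 libraries, described as independent biological replicates, and the sources used here do not say whether a form was carried by 1 line or by several made independently.

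Kelch-like proteins join a BTB domain, which docks on the scaffold CUL3, to a Kelch propeller, which holds a substrate. CUL3 carries RBX1, which recruits a ubiquitin-charged E2 enzyme, so each adaptor directs the ligase to its own substrates. KLHL6 is known as an adaptor of the B cell lineage that is mutated in B cell lymphomas, and Roquin2, an RNA-binding protein that promotes decay of mRNAs, is a reported substrate of it. The tyrosine replaced in Y691F lies in the stretch of Roquin2 reported to be needed for binding to KLHL6. Only mRNA was measured here, so nothing is said of protein levels or of ubiquitination.

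Roquin2 is encoded by RC3H2 on chromosome 9. The reference codon at the position named in Y691F, in a reading frame of 1191 codons, was read from GENCODE 29 on GRCh38, at chr9:122858867-122858893 on the minus strand, within exon 11 of transcript ENST00000373670.5. It is shown because the comparison between the forms rests on it. The codon stands in capitals and encodes tyrosine (Y), which the mutant form replaces by phenylalanine (F), and the sources used here do not give the codon of the construct.
RC3H2 codon: ccttctggaatgTATgctcctgtgtac

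RC3H2 mRNA, from the construct and the cells' own gene together, had 206, 207 and 204 CPM in Y691F with IgM, against 120.0, 119.8 and 123 CPM in WT with IgM. CPM is the read count relative to the library total, adjusted by TMM. In untreated cells RC3H2 had 209, 209 and 208 CPM in Y691F, against 109, 111 and 111 CPM in WT. Y691F cells thus held more RC3H2 mRNA than WT cells with IgM (log2 change 0.77, SE 0.03, adjusted p = 7.31e-36) and without it (log2 change 0.92, SE 0.03, adjusted p = 2.5e-41). In every comparison of the forms below, the substitution, the amount of RC3H2 mRNA and the cell line that carried it cannot be told apart. Libraries held 16465393 to 21478790 counts. Of the B cell markers, MS4A1, CD79A, CD79B and PAX5 were between 64.4 and 1359 CPM in the libraries. The T cell markers CD3D, CD3E and CD3G reached at most 0.402 CPM, with CD3D at 0 throughout, and the myeloid markers CD14, LYZ and CSF1R at most 1.32 CPM. COL1A1 and COL1A2 reached at most 1.66 CPM, while EPCAM, an epithelial marker, was between 18.5 and 24.02 CPM.

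KLHL6 was the most abundant member per length of transcript. On the scale of the deposited RPKM, reads relative to transcript length and library total, it averaged 32.3 over the 12 libraries, and 1017 of the 19826 protein-coding genes in the table (5.13%) lay above it. KEAP1 followed with 27.8 RPKM, RBX1 with 13.9, KLHL12 with 9.94, KLHL21 with 8.62, KLHL18 with 6.25, KLHL17 with 6.08 and CUL3 with 5.06. The median of the 29 tested members was 2.59 RPKM, and the lowest, KLHL31, had 0.0834. KLHL6 and KEAP1 stood closest in WT with IgM, at 24.2 ± 0.203 and 23.9 ± 0.778 RPKM (SD, n = 3 each), with overlapping libraries. In WT untreated they were apart, at 43.5 ± 0.985 and 29.7 ± 0.809 RPKM. KLHL6 was also set against the summed RPKM of the members named KLHL, which leaves out KEAP1. It made up 31.3% of that sum in Y691F with IgM and 24.5% in WT with IgM. Untreated, it made up 29.8% in Y691F and 35.9% in WT.

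The 11 members that were not tested had almost no reads. KLHL33, KLHL41, KLHL10, KLHL30, KLHL35, KLHL13 and KLHL1 had between 1 and 9 reads over all 12 libraries. KLHL4, KLHL34, KLHL38 and KLHL40 had none. KLHL40 and KLHL41 are known from skeletal muscle and KLHL10 from the testis.

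**Figure D1:**
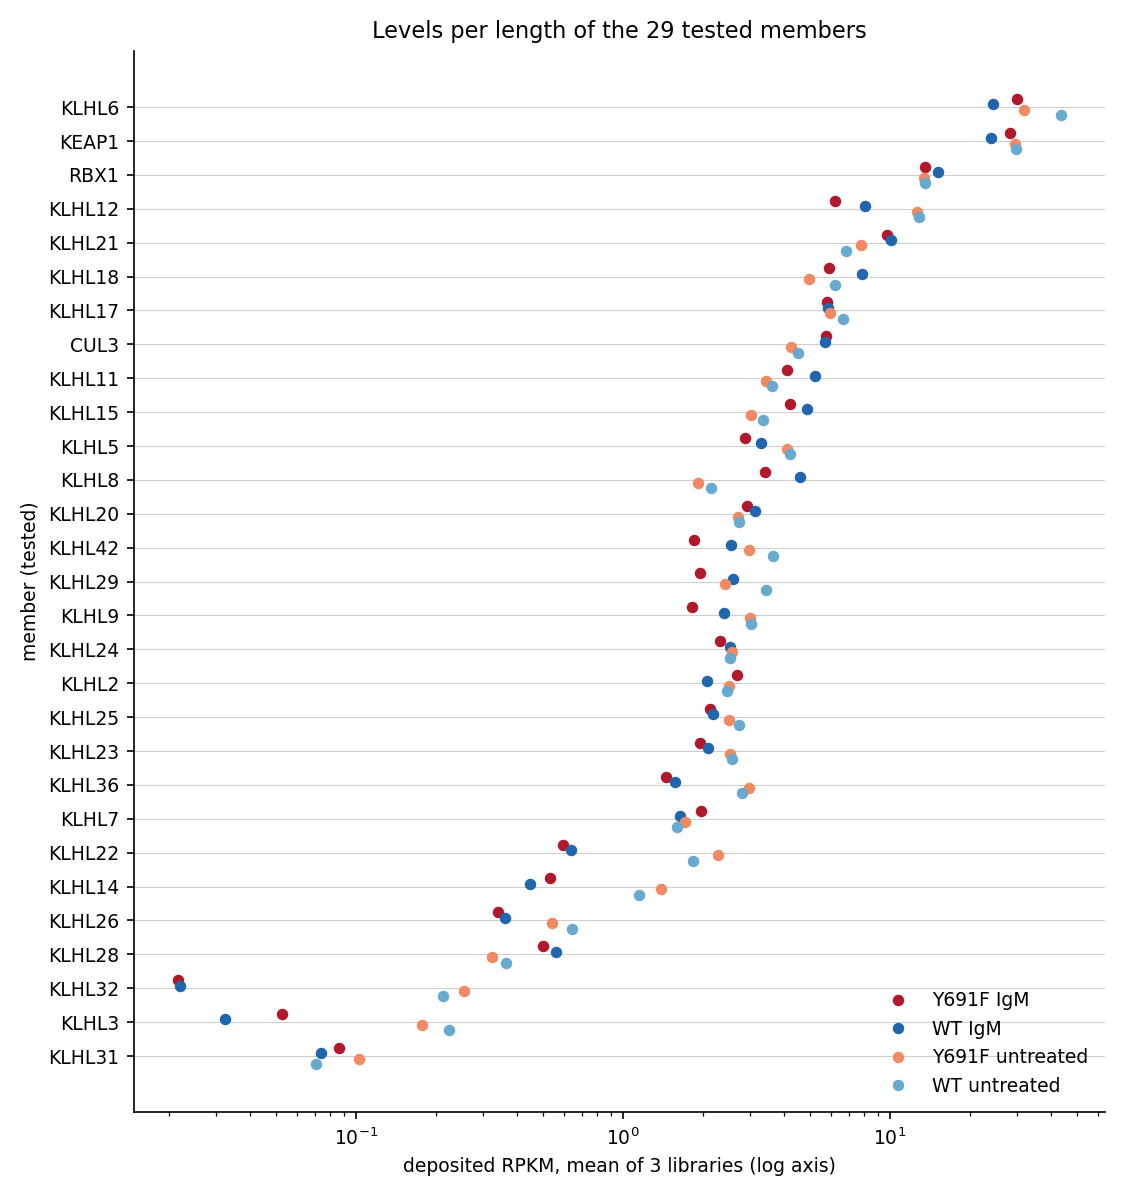
Deposited RPKM (log axis) of the 29 tested members, 1 point per group as the mean of 3 libraries, ordered by the mean over all libraries. KLHL6 lies furthest right with a mean of 32.3 RPKM, and its 4 groups are spread out, with WT untreated highest, while the lowest member, KLHL31, has a mean of 0.0834 RPKM.

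KLHL6 (ENSG00000172578, chr3:183487531-183555689, minus strand on GRCh38) fell with IgM in WT cells and was not called in Y691F cells. KLHL6 had 402, 399 and 419 CPM in Y691F with IgM, against 332, 324 and 332 CPM in WT with IgM. It had 393, 384 and 401 CPM in Y691F untreated, against 542, 550.2 and 526 CPM in WT untreated. WT untreated was thus the highest of the groups and WT with IgM the lowest, and both Y691F groups lay between them with overlapping libraries. IgM lowered KLHL6 in WT cells (log2 change -0.71, SE 0.03, adjusted p = 1.34e-38, edgeR's quasi-likelihood test as throughout). In Y691F cells the same treatment gave a log2 change 0.05, SE 0.03, adjusted p = 0.116. The IgM responses differed by 0.76 on the log2 scale (Y691F minus WT, interaction, SE 0.04, adjusted p = 1.11e-28).

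The comparison between the forms therefore changed direction with treatment. With IgM, KLHL6 was higher in Y691F than in WT, at 406 ± 10.7 against 329 ± 4.63 CPM (SD, n = 3 each, log2 change 0.30, SE 0.03, adjusted p = 2.6e-15). Without IgM it was lower in Y691F than in WT, at 393 ± 8.31 against 539 ± 12.5 CPM (log2 change -0.46, SE 0.03, adjusted p = 3.02e-25). The libraries of the forms did not overlap in either state. KLHL6 was the 1 member called in opposite directions between the forms with and without IgM. When counts were scaled by library totals alone, the response in Y691F cells was called as a fall (-0.12 on the log2 scale, adjusted p = 6.05e-05). That scaling moved the median of all tested genes to -0.18 in the same contrast, against -0.01 with TMM. In bulk RNA, fewer cells that express a gene and less of its RNA per cell cannot be told apart.

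**Figure D2:**
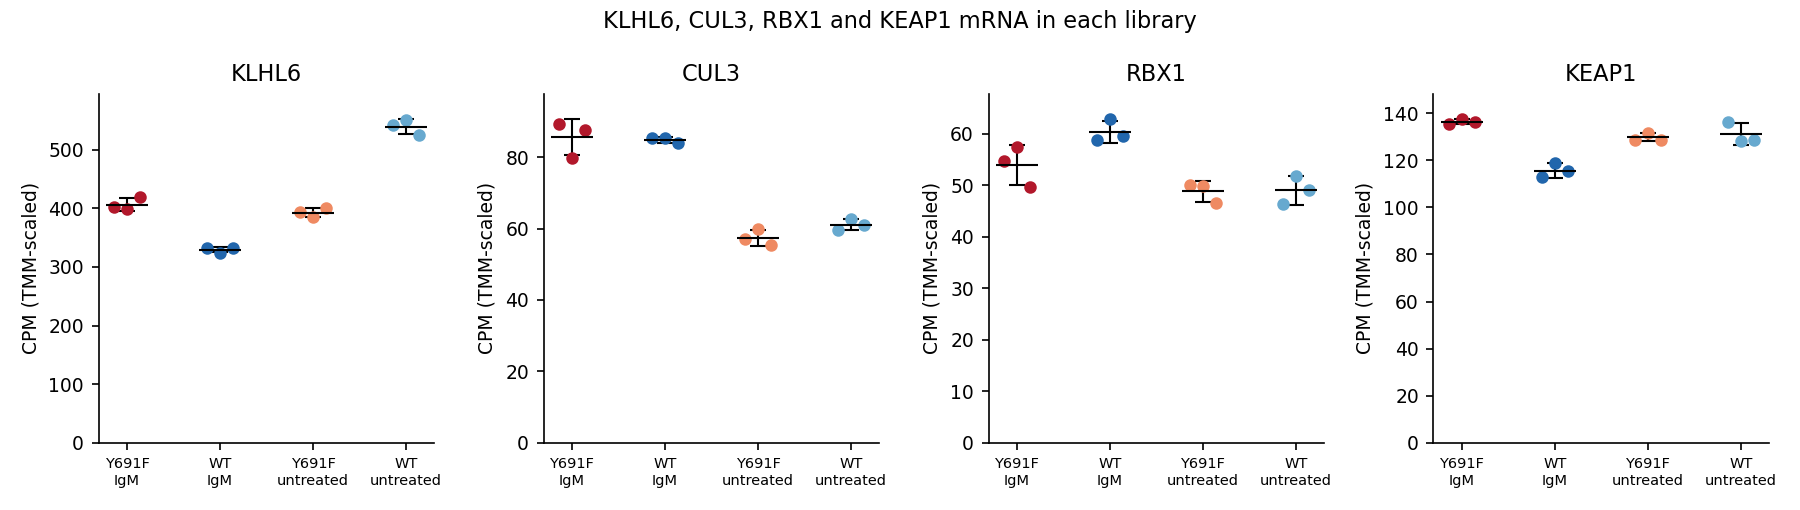
TMM-scaled CPM (from 0) of KLHL6, CUL3, RBX1 and KEAP1 in each library (points), with the mean and SD of 3 libraries per group. For KLHL6 the WT groups are the highest (untreated) and the lowest (IgM) and the Y691F groups lie between, whereas CUL3 is higher in both IgM groups than in both untreated groups.

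The promoter of KLHL6 is shown because the gene had a larger difference in IgM response than any other tested member except KLHL3. It is the stretch of 250 bases before the RefSeq start on GRCh38.p14 (chr3:183555707-183555956, minus strand), 5′ to 3′ in the direction of the gene. Capitals mark the 1 match to the letters of the motifs searched, an ETS core (GGAAGT) on the opposite strand, 60 bases before the start.
KLHL6: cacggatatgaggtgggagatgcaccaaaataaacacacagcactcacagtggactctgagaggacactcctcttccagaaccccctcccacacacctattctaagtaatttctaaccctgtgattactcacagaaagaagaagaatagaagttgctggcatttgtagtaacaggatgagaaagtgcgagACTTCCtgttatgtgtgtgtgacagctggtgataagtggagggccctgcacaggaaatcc
The GC content of this stretch was 46.8%, against a median of 58.0% over all promoter windows of the same length. An ETS core was found in 5 of the 26 promoters of tested members (19.2%) and in 19.9% of all 27195 promoters.

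CUL3, the scaffold itself, rose with IgM in both forms. CUL3 had 89.3, 79.9 and 87.5 CPM in Y691F with IgM, against 85.4, 85.3 and 83.9 CPM in WT with IgM. It had 56.999, 59.8 and 55.4 CPM in Y691F untreated, against 59.5, 62.8 and 61.1 CPM in WT untreated. Every IgM library lay above every untreated library. The rise was log2 change 0.58, SE 0.04, adjusted p = 6.73e-22, in Y691F cells and log2 change 0.47, SE 0.04, adjusted p = 1.97e-17, in WT cells, and the responses were not called different (difference 0.10 (SE 0.06, adjusted p = 0.213)). Between the forms CUL3 was not called with IgM (log2 change 0.01, SE 0.04, adjusted p = 0.865) or without it (log2 change -0.09, SE 0.04, adjusted p = 0.0984). Without the second Y691F untreated library, CUL3 was called lower in untreated Y691F cells (log2 change -0.12, adjusted p = 0.0436), and without the second Y691F IgM library the responses were called different (0.16, adjusted p = 0.0453).

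RBX1, the RING subunit, also rose with IgM, by less, and in Y691F its direction depended on the scaling. RBX1 had 54.7, 57.4 and 49.6 CPM in Y691F with IgM, against 58.8, 62.8 and 59.6 CPM in WT with IgM. It had 50.1, 49.8 and 46.5 CPM in Y691F untreated, against 46.3, 51.9 and 49.1 CPM in WT untreated. The IgM libraries stood above the untreated ones in WT, while in Y691F 1 IgM library was below the 2 highest untreated ones. The log2 change with IgM was 0.15 (SE 0.05, adjusted p = 0.00487) in Y691F cells and 0.30 (SE 0.05, adjusted p = 5.88e-08) in WT cells. With IgM, RBX1 was lower in Y691F than in WT (log2 change -0.16, SE 0.05, adjusted p = 0.00432). That call was lost without the second WT IgM library (adjusted p = 0.0797) or without the third Y691F IgM library (adjusted p = 0.113), and the IgM call in Y691F was lost without the second Y691F IgM library (adjusted p = 0.0831). With library totals alone the IgM change in Y691F was -0.02 (adjusted p = 0.693). The difference of responses, -0.15 (SE 0.07, adjusted p = 0.0985), was called with library totals alone (-0.19, adjusted p = 0.0385) and when any of 3 single libraries was left out (adjusted p 0.0379 to 0.0441).

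KEAP1, the adaptor that holds the oxidative stress factor NRF2 for degradation, was called in opposite directions with IgM in the forms. KEAP1 had 135, 137 and 136 CPM in Y691F with IgM, against 113, 119 and 115 CPM in WT with IgM. It had 129, 132 and 129 CPM in Y691F untreated, against 136, 128 and 129 CPM in WT untreated. WT with IgM stood below the other groups, and its libraries overlapped with none of theirs. KEAP1 fell with IgM in WT (log2 change -0.18, SE 0.04, adjusted p = 3.69e-06) and was called higher in Y691F at the edge of the threshold (log2 change 0.07, SE 0.03, adjusted p = 0.0499). The responses differed by 0.25 (SE 0.05, adjusted p = 2.35e-05). With IgM, KEAP1 was higher in Y691F than in WT (log2 change 0.24, SE 0.04, adjusted p = 2.07e-08), and untreated cells gave -0.01 (SE 0.03, adjusted p = 0.797). The rise in Y691F alone did not hold: the adjusted p lay between 0.0523 and 0.11 without each of 8 single libraries, and under scaling by library totals the change was -0.10 (adjusted p = 0.00667).

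IgM moved most of the tested members, about as often as it moved genes in general. In Y691F cells 12 of 29 rose and 12 fell, against 37.1% and 38.7% of the 15112 tested genes. In WT cells 9 of 29 rose and 14 fell, against 38.4% and 38.5% of the tested genes. The median log2 change of the members was -0.01 in Y691F cells and -0.16 in WT cells, against -0.01 and 0.00 over all tested genes. The members called higher in WT, 9 of 9, were also called higher in Y691F, where they made up 9 of 12. Of the members that fell, 11 were shared, 11 of the 12 in Y691F and 11 of the 14 in WT. The same sharing was not counted over all tested genes, so it is not read as a trait of the members. KEAP1 was the 1 member called in opposite directions, and its call in Y691F lay at the edge of the threshold. With counts scaled by library totals alone, 8 members rose and 16 fell in Y691F cells, and 9 rose and 17 fell in WT cells. Under that scaling 28.1% of all tested genes rose and 48.1% fell in Y691F cells, and 30.7% rose and 44.8% fell in WT cells. The same scaling moved the median of all tested genes to -0.18 and -0.13.

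**Figure D3:**
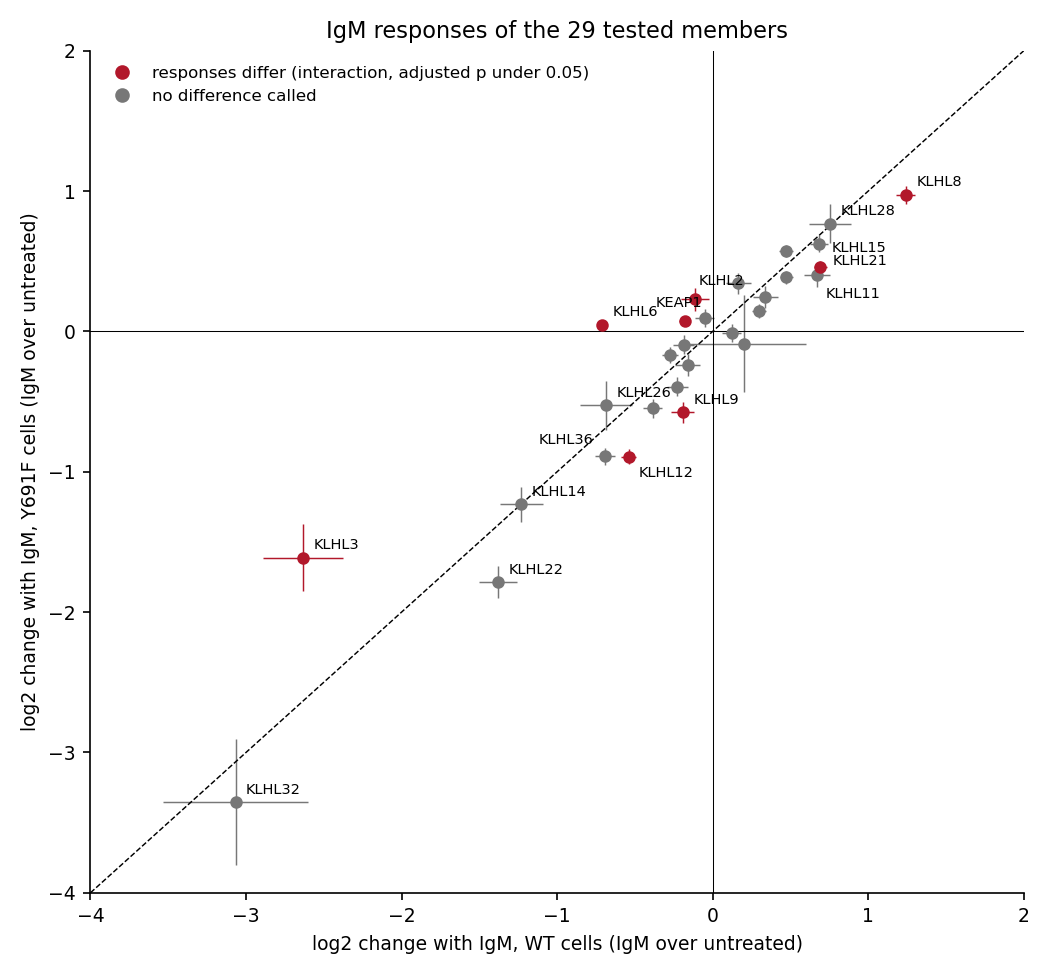
Log2 change with IgM in WT cells (x axis) and in Y691F cells (y axis) for the 29 tested members, with approximate SE as bars and the line of equal response dashed. Red points are the 8 members whose responses were called different. KLHL6 lies far left of the line near 0 on the y axis, and KLHL8 and KLHL32 mark the ends of the range.

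KLHL8 had the largest log2 rise with IgM of the tested members in both forms. KLHL8 had 33.1, 31.7 and 32.1 CPM in Y691F with IgM, against 44.3, 43.6 and 42.98 CPM in WT with IgM. It had 16.5, 15.2 and 17.6 CPM in Y691F untreated, against 16.7, 18.7 and 19.9 CPM in WT untreated. The IgM libraries lay well above the untreated ones in both forms, and with IgM the Y691F libraries were all below the WT libraries. The rise was log2 change 0.97, SE 0.06, adjusted p = 1.75e-24, in Y691F cells and log2 change 1.24, SE 0.06, adjusted p = 9.79e-33, in WT cells. KLHL8 was lower in Y691F than in WT with IgM (log2 change -0.43, SE 0.06, adjusted p = 3.81e-10), while untreated cells gave -0.17 (SE 0.07, adjusted p = 0.0627). The difference of responses, -0.27 (SE 0.09, adjusted p = 0.019), was not called without the first WT untreated library (adjusted p = 0.108) or the third Y691F untreated library (adjusted p = 0.0858), or by the Wald test of DESeq2 (adjusted p = 0.0759).

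KLHL21, which targets Aurora B at the midzone of dividing cells, rose in both forms and by less in Y691F. KLHL21 had 83.7, 88.6 and 88.98 CPM in Y691F with IgM, against 89.3, 92.003 and 87.5 CPM in WT with IgM. It had 64.3, 62.03 and 63.3 CPM in Y691F untreated, against 55.8, 56.3 and 54.2 CPM in WT untreated. With IgM the libraries of the forms overlapped at about the same level, and untreated Y691F libraries all lay above the WT ones. The rise was log2 change 0.46, SE 0.04, adjusted p = 5.37e-18, in Y691F cells and log2 change 0.69, SE 0.04, adjusted p = 2.82e-27, in WT cells, with a difference of -0.23 (SE 0.06, adjusted p = 0.00112). Untreated, KLHL21 was higher in Y691F (log2 change 0.19, SE 0.04, adjusted p = 0.0002), and with IgM the change between the forms was -0.04 (SE 0.04, adjusted p = 0.41).

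KLHL15, an adaptor for the B56 beta subunit of the phosphatase PP2A and for the DNA end resection factor CtIP, rose in both forms. KLHL15 had 34.97, 34.1 and 33.3 CPM in Y691F with IgM, against 41.2, 37.7 and 39.9 CPM in WT with IgM. It had 21.1, 20.7 and 24.7 CPM in Y691F untreated, against 25.3, 24.5 and 24.2 CPM in WT untreated. The IgM libraries stood above the untreated ones throughout. The log2 change with IgM was 0.62 (SE 0.06, adjusted p = 7.55e-16) in Y691F and 0.68 (SE 0.06, adjusted p = 2.39e-18) in WT. With IgM, KLHL15 was lower in Y691F (log2 change -0.21, SE 0.06, adjusted p = 0.0012). The lower level in untreated Y691F cells (log2 change -0.16, SE 0.06, adjusted p = 0.0482) was not called when any 1 of 11 of the 12 libraries was left out (adjusted p 0.0535 to 0.231), nor with library totals alone, without the filter on low counts or by the Wald test of DESeq2 (adjusted p 0.0899 to 0.117).

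KLHL11, known as the target of an autoantibody in encephalitis that accompanies testicular tumours, rose as well. KLHL11 had 12.8, 13.6 and 11.6 CPM in Y691F with IgM, against 15.1, 16.1 and 17.2 CPM in WT with IgM. It had 9.71, 9.68 and 9.52 CPM in Y691F untreated, against 10.1, 10.3 and 9.81 CPM in WT untreated. The Y691F libraries with IgM lay between the untreated libraries and the WT libraries with IgM. The rise was log2 change 0.40, SE 0.09, adjusted p = 2.67e-05, in Y691F and log2 change 0.67, SE 0.08, adjusted p = 1.43e-11, in WT, and the difference of responses was -0.27 (SE 0.12, adjusted p = 0.0912). With IgM, KLHL11 was lower in Y691F (log2 change -0.34, SE 0.08, adjusted p = 0.000343), and untreated cells gave -0.07 (SE 0.09, adjusted p = 0.617).

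KLHL28 was a low member that rose in both forms. KLHL28 had 5.003, 5.36 and 5.26 CPM in Y691F with IgM, against 6.11, 5.99 and 5.36 CPM in WT with IgM. It had 2.81, 3.42 and 2.97 CPM in Y691F untreated, against 3.66, 3.29 and 3.44 CPM in WT untreated. The IgM libraries did not overlap with the untreated ones, whereas the forms overlapped. The log2 change with IgM was 0.77 (SE 0.14, adjusted p = 8.94e-07) in Y691F and 0.75 (SE 0.13, adjusted p = 5.83e-07) in WT, and between the forms it was -0.16 (SE 0.13, adjusted p = 0.317) with IgM and -0.18 (SE 0.15, adjusted p = 0.402) untreated. KLHL28 shares 80115 bases with FAM179B on the opposite strand, and the sources used here do not say whether reads were counted by strand.

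KLHL3, known from the kidney as the adaptor that degrades WNK kinases, had the largest fall in WT of the members with a mean of at least 1 CPM. KLHL3 had 0.5003, 0.965 and 0.951 CPM in Y691F with IgM, against 0.359, 0.486 and 0.638 CPM in WT with IgM. It had 2.53, 2.23 and 2.62 CPM in Y691F untreated, against 3.07, 2.94 and 3.27 CPM in WT untreated. These are low levels, 6 to 18 reads per library with IgM and 43 to 66 without it, and the IgM libraries were below all untreated ones. The fall was log2 change -1.61, SE 0.24, adjusted p = 3.71e-09, in Y691F and log2 change -2.63, SE 0.26, adjusted p = 8.24e-16, in WT. Between the forms KLHL3 was not called with IgM (log2 change 0.70, SE 0.36, adjusted p = 0.11) or without it (log2 change -0.32, SE 0.17, adjusted p = 0.141). The difference of responses, 1.02 (SE 0.39, adjusted p = 0.0454), was not called without any 1 of 8 of the libraries (adjusted p 0.0527 to 0.169), with library totals alone (adjusted p = 0.055), by limma-voom (adjusted p = 0.0651), without the filter on low counts (adjusted p = 0.0887) or by the Wald test of DESeq2 (adjusted p = 0.108).

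KLHL22, reported to act on PLK1 and on the mTORC1 regulator DEPDC5, fell in both forms. KLHL22 had 3.45, 3.59 and 3.68 CPM in Y691F with IgM, against 4.01, 3.19 and 4.27 CPM in WT with IgM. It had 12.6, 12.3 and 12.1 CPM in Y691F untreated, against 11.3, 8.59 and 9.93 CPM in WT untreated. The groups with IgM overlapped, while the untreated Y691F libraries were all above the untreated WT ones. The fall was log2 change -1.79, SE 0.12, adjusted p = 3.76e-25, in Y691F and log2 change -1.38, SE 0.12, adjusted p = 5.06e-18, in WT, and the difference of responses was -0.41 (SE 0.18, adjusted p = 0.0857). Untreated, KLHL22 was higher in Y691F (log2 change 0.32, SE 0.09, adjusted p = 0.00342), a call lost without the second WT untreated library (log2 change 0.21, adjusted p = 0.115). With IgM the change between the forms was -0.09 (SE 0.15, adjusted p = 0.687).

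KLHL14, a B cell adaptor known to restrain the B cell receptor in lymphoma cells of the activated type, fell by the same log2 change in both forms. KLHL14 had 4.003, 3.16 and 3.17 CPM in Y691F with IgM, against 2.63, 2.59 and 3.44 CPM in WT with IgM. It had 7.64, 8.65 and 8.11 CPM in Y691F untreated, against 6.47, 6.76 and 6.999 CPM in WT untreated. The IgM libraries lay far below the untreated ones, and the forms overlapped with IgM only. The log2 change with IgM was -1.23 (SE 0.13, adjusted p = 8.09e-15) in Y691F and -1.23 (SE 0.14, adjusted p = 4.1e-13) in WT. Untreated, KLHL14 was higher in Y691F (log2 change 0.27, SE 0.11, adjusted p = 0.0437), and that call was lost without any 1 of 5 of the 6 untreated libraries (adjusted p 0.0569 to 0.158), without the filter on low counts (adjusted p = 0.0789) or by the Wald test of DESeq2 (adjusted p = 0.181). With IgM the change between the forms was 0.27 (SE 0.16, adjusted p = 0.194).

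**Figure D4:**
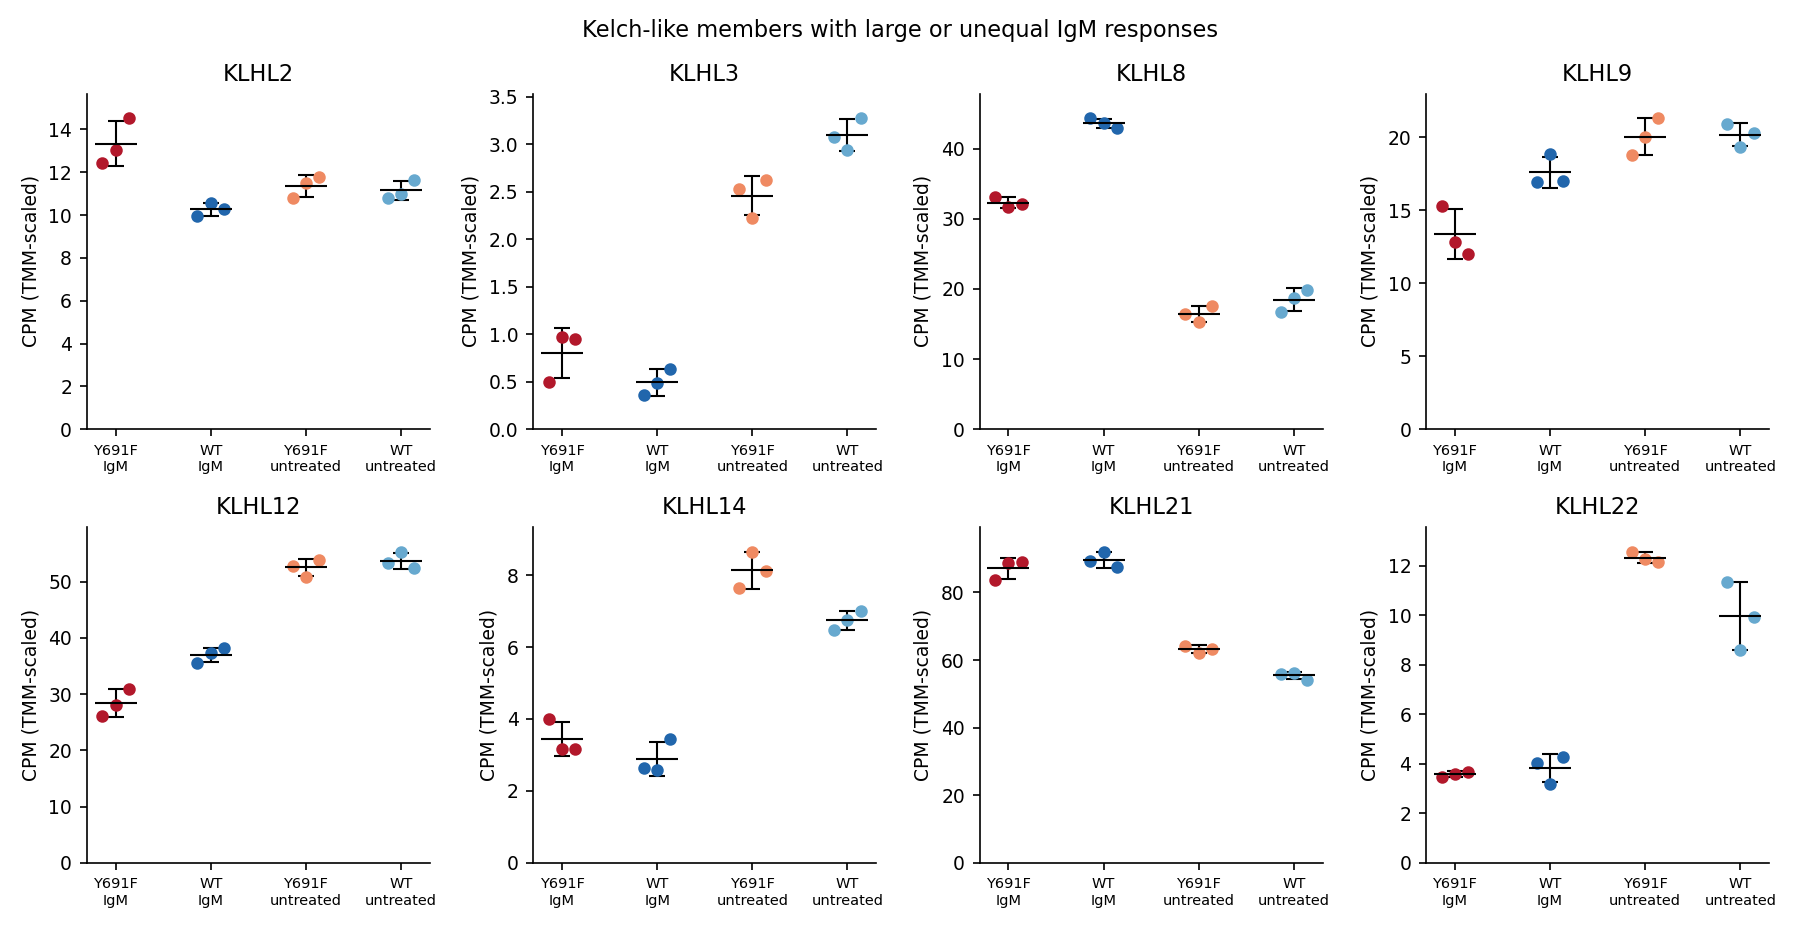
TMM-scaled CPM (from 0) in each library (points), with the mean and SD of 3 libraries per group, for 8 members with large or unequal IgM responses. KLHL8 and KLHL21 are higher with IgM in both forms, KLHL3, KLHL12, KLHL14 and KLHL22 lower, and KLHL9 and KLHL12 are lowest in Y691F with IgM.

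KLHL12, which ubiquitinates the coat protein SEC31 in large vesicle formation and also acts on Dishevelled, fell further in Y691F than in WT. KLHL12 had 26.2, 28.1 and 30.99 CPM in Y691F with IgM, against 35.6, 37.3 and 38.1 CPM in WT with IgM. It had 52.8, 50.9 and 53.9 CPM in Y691F untreated, against 53.4, 55.3 and 52.5 CPM in WT untreated. Untreated libraries of the forms overlapped, and with IgM the Y691F libraries were all below the WT libraries. The fall was log2 change -0.89, SE 0.05, adjusted p = 1.45e-27, in Y691F and log2 change -0.54, SE 0.05, adjusted p = 1.15e-16, in WT, a difference of -0.35 (SE 0.07, adjusted p = 8.59e-05). With IgM, KLHL12 was lower in Y691F (log2 change -0.39, SE 0.06, adjusted p = 2.07e-08), and untreated cells gave -0.03 (SE 0.05, adjusted p = 0.634).

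KLHL9, which acts with KLHL13 on Aurora B, also fell further in Y691F. KLHL9 had 15.3, 12.8 and 12.04 CPM in Y691F with IgM, against 16.9, 18.8 and 17.02 CPM in WT with IgM. It had 18.8, 20.04 and 21.3 CPM in Y691F untreated, against 20.9, 19.4 and 20.3 CPM in WT untreated. KLHL13 itself had 2 reads in all 12 libraries. Untreated libraries of the forms overlapped for KLHL9, and the Y691F libraries with IgM stood below all others. The log2 change with IgM was -0.58 (SE 0.08, adjusted p = 2.12e-10) in Y691F and -0.19 (SE 0.07, adjusted p = 0.016) in WT, a difference of -0.39 (SE 0.11, adjusted p = 0.00371). With IgM, KLHL9 was lower in Y691F (log2 change -0.39, SE 0.08, adjusted p = 3.37e-05), and untreated cells gave -0.01 (SE 0.07, adjusted p = 0.944). The smaller fall in WT was not called without the first WT untreated library (adjusted p = 0.0656), the first WT IgM library (adjusted p = 0.0695) or the third WT IgM library (adjusted p = 0.0553).

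KLHL2, a relative of KLHL3 that also acts on WNK kinases and binds actin, was highest in Y691F with IgM. KLHL2 had 12.5, 13.03 and 14.5 CPM in Y691F with IgM, against 9.94, 10.6 and 10.3 CPM in WT with IgM. It had 10.8, 11.5 and 11.8 CPM in Y691F untreated, against 10.8, 10.99 and 11.6 CPM in WT untreated. The untreated groups overlapped. IgM gave a log2 change 0.23, SE 0.08, adjusted p = 0.0112, in Y691F and log2 change -0.12, SE 0.09, adjusted p = 0.234, in WT, with a difference of 0.34 (SE 0.12, adjusted p = 0.0279). With IgM, KLHL2 was higher in Y691F (log2 change 0.37, SE 0.09, adjusted p = 0.000305), and untreated cells gave 0.03 (SE 0.08, adjusted p = 0.844). The rise in Y691F was not called without the first Y691F untreated library (adjusted p = 0.0605) or the third Y691F IgM library (adjusted p = 0.1), and with library totals alone it was 0.06 (adjusted p = 0.536). The difference of responses was not called without any 1 of 4 of the libraries (adjusted p 0.0668 to 0.101), with library totals alone (0.31, adjusted p = 0.0538), without the filter on low counts (adjusted p = 0.0534) or by the Wald test of DESeq2 (adjusted p = 0.0831).

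KLHL36 fell in both forms and was not called between them. KLHL36 had 20.1, 18.6 and 17.6 CPM in Y691F with IgM, against 18.6, 20.9 and 21.04 CPM in WT with IgM. It had 35.7, 34.1 and 34.6 CPM in Y691F untreated, against 33.2, 32.3 and 32.4 CPM in WT untreated. All IgM libraries were below all untreated libraries. The log2 change with IgM was -0.89 (SE 0.06, adjusted p = 3.08e-23) in Y691F and -0.69 (SE 0.06, adjusted p = 2.71e-17) in WT, and between the forms it was -0.10 (SE 0.07, adjusted p = 0.241) with IgM and 0.09 (SE 0.05, adjusted p = 0.196) untreated.

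KLHL26, at a low level, showed a similar pattern. KLHL26 had 2.28, 2.09 and 1.96 CPM in Y691F with IgM, against 2.22, 2.38 and 2.10 CPM in WT with IgM. It had 3.31, 3.11 and 2.72 CPM in Y691F untreated, against 3.60, 3.56 and 3.67 CPM in WT untreated. The IgM libraries did not overlap with the untreated ones. Its log2 change with IgM was -0.53 (SE 0.17, adjusted p = 0.00465) in Y691F and -0.69 (SE 0.17, adjusted p = 0.000156) in WT, and between the forms it was -0.08 (SE 0.19, adjusted p = 0.776) with IgM and -0.24 (SE 0.15, adjusted p = 0.23) untreated.

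Between the forms, fewer members were called. With IgM, 4 of 29 were higher in Y691F (KEAP1, KLHL2, KLHL6 and KLHL7) and 10 were lower, against 21.9% and 20.2% of all tested genes. The lower ones were KLHL5, KLHL8, KLHL9, KLHL11, KLHL12, KLHL15, KLHL18, KLHL29, KLHL42 and RBX1, and none of the 14 changed by 1.5-fold or more. Untreated, 3 of 29 were higher in Y691F (KLHL14, KLHL21 and KLHL22) and 5 were lower (KLHL6, KLHL15, KLHL18, KLHL29 and KLHL42), against 15.1% and 16.1%. The median log2 change of the members was -0.10 with IgM and -0.03 untreated, against 0.00 and -0.01 over all tested genes. KLHL15, KLHL18, KLHL29 and KLHL42 were lower in Y691F in both states, 4 of the 10 with IgM and 4 of the 5 untreated. Here too, sharing was not counted over all tested genes. No member was higher in both. The libraries of the forms did not overlap for any of the 14 called with IgM or for 7 of the 8 called untreated, KLHL15 being the exception, and 94.8% and 92.6% of all called genes were without overlap in the same contrasts. Of the 21 members not called untreated, 6 did not overlap either, against 16.2% of all genes not called.

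**Figure D5:**
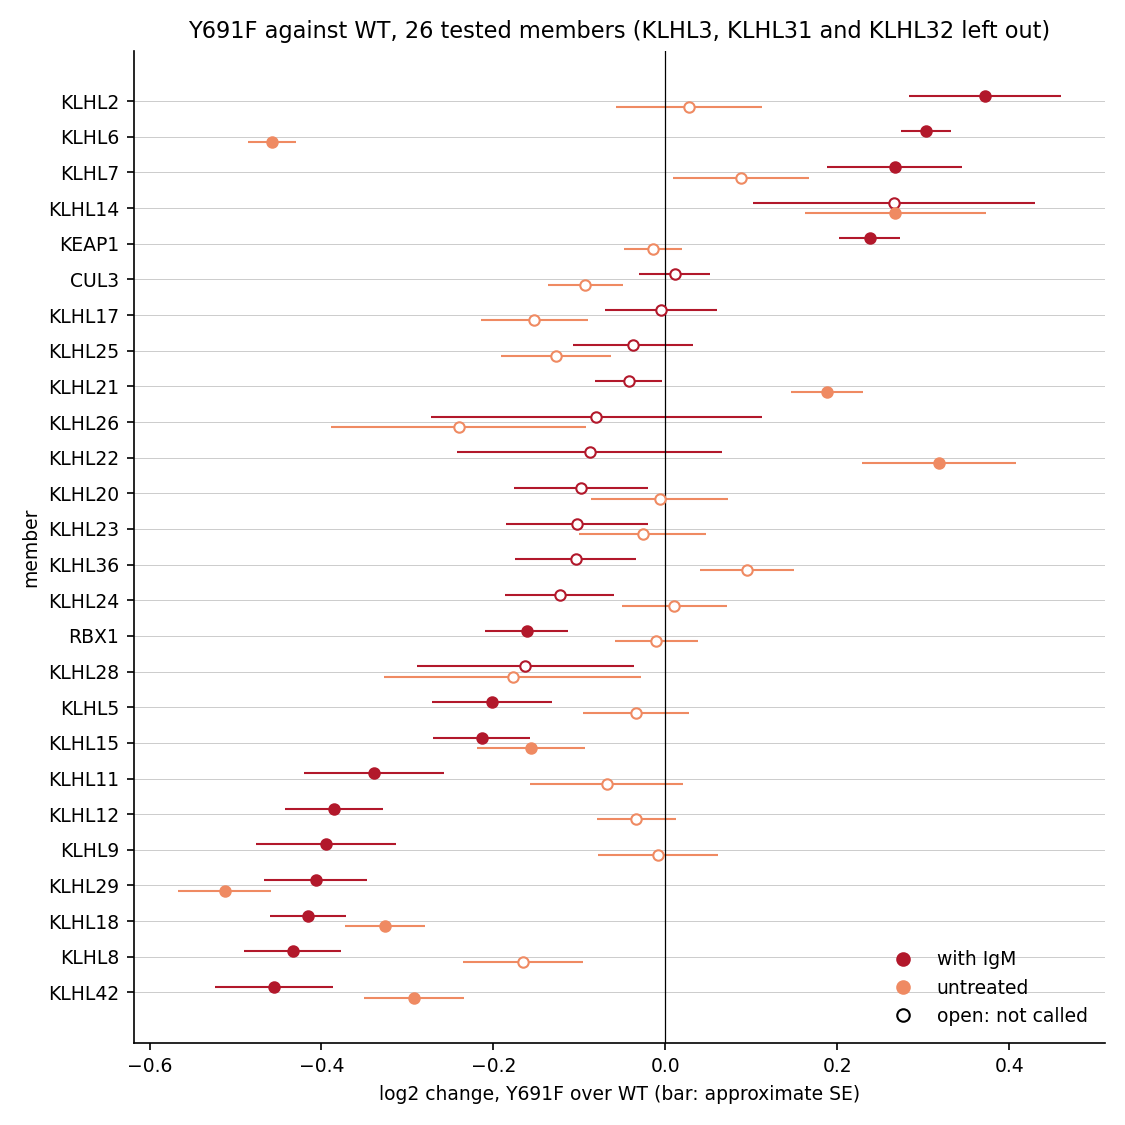
Log2 change of Y691F over WT with IgM (red) and untreated (orange) for 26 tested members, with approximate SE as bars and open points where the adjusted p was not under 0.05. KLHL6 is at 0.30 with IgM and at -0.46 untreated, while KLHL18, KLHL29 and KLHL42 are below 0 in both. KLHL3, KLHL31 and KLHL32, which had few reads, are not drawn.

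KLHL42, an adaptor for the microtubule-severing enzyme katanin, was lower in Y691F in both states and fell with IgM in both forms. KLHL42 had 19.8, 17.8 and 16.9 CPM in Y691F with IgM, against 25.6, 24.6 and 24.7 CPM in WT with IgM. It had 26.6, 25.4 and 27.9 CPM in Y691F untreated, against 33.8, 31.7 and 32.5 CPM in WT untreated. The Y691F libraries were below the WT libraries in each state. Between the forms the log2 change was -0.46 (SE 0.07, adjusted p = 2.94e-08) with IgM and -0.29 (SE 0.06, adjusted p = 2.55e-05) untreated. With IgM it was -0.55 (SE 0.07, adjusted p = 4.27e-12) in Y691F and -0.39 (SE 0.06, adjusted p = 2.41e-08) in WT.

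KLHL29 was also lower in Y691F in both states. KLHL29 had 29.2, 26.5 and 27.6 CPM in Y691F with IgM, against 35.98, 33.9 and 41.1 CPM in WT with IgM. It had 30.7, 32.98 and 30.01 CPM in Y691F untreated, against 44.2, 43.8 and 45.8 CPM in WT untreated. Again the Y691F libraries lay below the WT libraries in each state. Between the forms its log2 change was -0.41 (SE 0.06, adjusted p = 1.82e-08) with IgM and -0.51 (SE 0.05, adjusted p = 3.25e-13) untreated. The IgM change was -0.17 (SE 0.06, adjusted p = 0.00907) in Y691F and -0.27 (SE 0.05, adjusted p = 5.41e-06) in WT, and the call in Y691F was lost without the second Y691F untreated library (adjusted p = 0.0779) or the second Y691F IgM library (adjusted p = 0.0769).

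Other members had smaller changes or few reads, and KLHL18, KLHL7 and KLHL32 are named here after their values were seen. KLHL18, which acts on Aurora A, averaged 53.8 ± 0.658 CPM in Y691F with IgM and 71.8 ± 0.529 in WT with IgM (log2 change -0.42, SE 0.04, adjusted p = 2.08e-13). Untreated it averaged 41.2 ± 2.51 CPM in Y691F and 51.6 ± 0.395 in WT (log2 change -0.33, SE 0.05, adjusted p = 9.32e-09, SD and n = 3 each). It rose with IgM in both forms, by a log2 change of 0.39 in Y691F and 0.47 in WT. KLHL7, mutated in a form of retinitis pigmentosa, averaged 17.9 ± 0.835 CPM in Y691F with IgM and 14.9 ± 0.772 in WT with IgM (log2 change 0.27, SE 0.08, adjusted p = 0.00368). KLHL7 rose with IgM in Y691F (log2 change 0.34, adjusted p = 4.52e-05) and was not called in WT. Its responses were not called different. KLHL32 had 1, 3 and 2 reads in Y691F with IgM, against 30, 21 and 24 in Y691F untreated. In WT it had 1, 3 and 2 reads with IgM, against 22, 25 and 14 untreated, and it was called lower with IgM in both forms (adjusted p = 1.82e-10 in Y691F and 1.17e-08 in WT).

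Of the remaining members, KLHL5 fell with IgM in both forms (log2 change -0.39 in Y691F and -0.23 in WT). It was lower in Y691F with IgM (log2 change -0.20, SE 0.07, adjusted p = 0.0141), a call lost without the second Y691F IgM library (adjusted p = 0.118) or the second WT IgM library (adjusted p = 0.142), or by the Wald test of DESeq2 (adjusted p = 0.0629). KLHL20, an adaptor for PML and DAPK1, rose with IgM in both (0.25 in Y691F and 0.34 in WT), and with library totals alone the call in Y691F was lost (0.08, adjusted p = 0.375). KLHL23 was called lower with IgM in Y691F (-0.24 (SE 0.08, adjusted p = 0.00498), against -0.16 (SE 0.08, adjusted p = 0.0538) in WT), and the difference was -0.08 (SE 0.11, adjusted p = 0.685). KLHL25, an adaptor for ACLY and the translation repressor 4E-BP1, was called lower with IgM in WT (-0.19 (SE 0.07, adjusted p = 0.00996), against -0.10 (SE 0.07, adjusted p = 0.193) in Y691F), and the difference was 0.09 (SE 0.09, adjusted p = 0.55). The KLHL25 call was lost without the third WT IgM library (adjusted p = 0.106). KLHL17, KLHL24 (mutated in a blistering skin disease) and KLHL31 were called in none of the 5 contrasts, with 23.6 to 28.2, 23.9 to 28.9 and 0.299 to 0.889 CPM over the 12 libraries.

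The IgM responses differed between the forms for 8 of 29 members. The difference (Y691F minus WT) was positive for KEAP1, KLHL2, KLHL3 and KLHL6 and negative for KLHL8, KLHL9, KLHL12 and KLHL21, against 14.7% and 11.0% of all tested genes. The median difference of the members was -0.09, against 0.01 over all tested genes. The 8 held unlike patterns. KLHL6 and KLHL3 fell less in Y691F or were not called there, KLHL9 and KLHL12 fell more, and KLHL8 and KLHL21 rose less. KLHL2 was called higher in Y691F only. KEAP1 was called lower in WT and, at the edge of the threshold, higher in Y691F. Scaled by library totals alone, 2 differences were positive and 6 negative, against 12.2% and 14.1% of all tested genes, and 6 of these calls were among the 8 above. The Wald test of DESeq2 called 5 of the 8 (KLHL6, KEAP1, KLHL9, KLHL12 and KLHL21).

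The promoters of 4 further members are shown because, by the mean log2 change with IgM over both forms, KLHL3 and KLHL22 had the largest falls and KLHL8 and KLHL28 the largest rises among members with a mean of at least 1 CPM and an entry in the RefSeq table. Each is the stretch of 250 bases before the RefSeq start on GRCh38.p14, 5′ to 3′ along the gene. They lie at chr5:137736090-137736339, minus strand, for KLHL3, chr22:20495796-20496045, minus strand, for KLHL22, chr4:87220619-87220868, minus strand, for KLHL8, and chr14:44961486-44961735, minus strand, for KLHL28. The RefSeq start lay 19696 bases from the edge of the gene in the count table for KLHL8 and 80837 bases for KLHL28. Capitals mark motif matches. KLHL22 held a kappaB site on the opposite strand and an E-box (CACGTG), 139 and 89 bases before the start. KLHL8 held an EGR core (GTGGGCG) and an ETS core (GGAAGT), both on the opposite strand, 114 and 47 bases before the start.
KLHL3: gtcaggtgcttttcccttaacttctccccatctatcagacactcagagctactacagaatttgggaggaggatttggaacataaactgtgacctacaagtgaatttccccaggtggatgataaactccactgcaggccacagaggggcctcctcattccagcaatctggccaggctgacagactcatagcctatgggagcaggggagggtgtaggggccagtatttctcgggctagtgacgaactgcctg
KLHL22: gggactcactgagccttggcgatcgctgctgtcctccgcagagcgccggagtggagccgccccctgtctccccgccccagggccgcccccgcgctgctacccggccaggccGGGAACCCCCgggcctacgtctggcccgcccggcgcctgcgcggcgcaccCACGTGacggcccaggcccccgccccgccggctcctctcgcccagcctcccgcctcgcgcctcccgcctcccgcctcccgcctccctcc
KLHL8: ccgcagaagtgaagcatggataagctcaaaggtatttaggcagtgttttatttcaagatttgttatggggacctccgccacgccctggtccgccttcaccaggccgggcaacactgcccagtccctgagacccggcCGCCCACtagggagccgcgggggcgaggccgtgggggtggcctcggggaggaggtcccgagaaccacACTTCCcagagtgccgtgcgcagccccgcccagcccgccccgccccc
KLHL28: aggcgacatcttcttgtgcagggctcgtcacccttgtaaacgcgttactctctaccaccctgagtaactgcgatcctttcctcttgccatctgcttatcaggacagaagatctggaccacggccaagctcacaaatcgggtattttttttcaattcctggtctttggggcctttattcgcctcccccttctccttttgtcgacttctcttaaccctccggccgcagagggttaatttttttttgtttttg
KLHL3 and KLHL28 held none of the letters searched in this window. GC content was 52.0% in KLHL3, 80.4% in KLHL22, 66.4% in KLHL8 and 48.4% in KLHL28.

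Both strands were searched for each motif, in the 26 tested members with an entry and in all 27195 promoters of the table. The larger set was not limited to tested genes, and the sets were not matched for GC content. The shares below are therefore not read as enrichment. An EGR core was found in 6 of 26 members (23.1%) and in 8.67% of all promoters. The NRF2 element core (TGACNNNGC) was found in 6 members (23.1%) and 11.0% of all. The kappaB site was found in 4 (15.4%) and 5.06%, AP-1 (TGACTCA) in 2 (7.69%) and 4.12%, the E-box in 2 (7.69%) and 6.5%, and CRE (TGACGTCA) in 0 and 1.77%. A match to TGACNNNGC can overlap one to TGACTCA, which occurred in KLHL21, 184 bases before the start. The members with an EGR core were CUL3, KLHL2, KLHL8, KLHL9, KLHL24 and KLHL29, of which some rose, some fell and KLHL24 was not called with IgM.

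Roquin proteins are known to bind small stem-loops in the 3′ untranslated regions of mRNAs. The letters TTCNNNGAA, a 3-base stem around a 3-base loop, were counted on the RNA strand in 1 GENCODE 29 transcript per gene. They were present in 15 of 28 members with an annotated region (53.6%) and in 36.7% of 11426 tested genes. The members' regions were longer, with a median of 2312.5 bases against 1086 bases, and the number of matches per kilobase was 0.346 in members and 0.359 in all. KLHL6 had no match in 4396 bases. The sites below are shown for KLHL22 and KLHL3, which had large falls with IgM, and for KLHL20, whose stem can be extended by the most pairs. The site of KLHL3 is 1 of its 3 matches. Members that rose with IgM in both forms also held matches, among them KLHL8 with 2 and KLHL18 with 3. KLHL12, which fell in both forms, held 2. A link between matches and the direction of change was not tested. Capitals mark the 9 matched letters, and the positions are on GRCh38: chr22:20441692-20441716, minus strand, for KLHL22, chr5:137617788-137617812, minus strand, for KLHL3, and chr1:173786577-173786601, plus strand, for KLHL20.
KLHL22: agccctctTTCTGTGAAtggggtgg
KLHL3: aaaatgctTTCGTTGAAagaaaact
KLHL20: gcacctttTTCAAGGAAaaaaagta
A stem longer by at least 2 further pairs was found in KLHL3, KLHL20, KLHL26 and KLHL28, 4 of 28 members (14.3%), and in 5.22% of the tested genes. Longer stems were not counted per kilobase, and the members' regions were longer, as given above. Of these 4 members, KLHL3 and KLHL26 fell with IgM in both forms, KLHL20 and KLHL28 rose, and none was called between the forms.

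CUL3 adaptors outside the Kelch-like names, such as the KBTBD, KCTD, BTBD and RHOBTB proteins, included genes with large changes. With IgM, Y691F cells had 6 of the 28 tested higher and 6 lower than WT cells, against 21.9% and 20.2% of all tested genes. Untreated, 6 were higher and 6 lower, against 15.1% and 16.1%. RHOBTB2 had 99.5 CPM in Y691F with IgM and 281 in WT with IgM (log2 change -1.50, SE 0.03, adjusted p = 2.17e-55). ENC1, a Kelch protein of the same family architecture, was higher in Y691F with IgM (log2 change 1.81, SE 0.23, adjusted p = 8.18e-11) and untreated (log2 change 2.42, SE 0.35, adjusted p = 1.14e-08). With IgM 15 rose and 10 fell in Y691F, against 37.1% and 38.7% of all tested genes. In WT 13 rose and 8 fell, against 38.4% and 38.5%. RHOBTB3 had the smallest adjusted p of the list in WT (log2 change 4.20, SE 0.09, adjusted p = 5.62e-57) and also rose in Y691F (log2 change 3.11, SE 0.11, adjusted p = 8.58e-43), and BTBD2 fell in both (-1.52 in Y691F and -1.84 in WT on the log2 scale). The responses differed for 4 upward and 3 downward, against 14.7% and 11.0% of all tested genes, RHOBTB2 (-0.71) and RHOBTB3 (-1.08) being the clearest.

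Among genes of the cullin ligase machinery outside the adaptors, more rose than fell with IgM under TMM scaling. The split of this list with library totals alone was not examined. Of 33 tested genes, 17 rose and 9 fell in Y691F, and 20 rose and 9 fell in WT, beside 37.1% and 38.7% of all tested genes in Y691F and 38.4% and 38.5% in WT. DCUN1D5, which promotes attachment of NEDD8 to cullins, rose in Y691F (log2 change 1.30, SE 0.04, adjusted p = 4.84e-44) and in WT (log2 change 1.43, SE 0.04, adjusted p = 3.02e-48). UBE2M, the NEDD8-conjugating enzyme, rose by 0.59 in Y691F and 0.59 in WT on the log2 scale, and COPS2, a subunit of the COP9 signalosome that removes NEDD8, by 0.95 and 0.90. RNF7, the RING partner of CUL5, fell in Y691F (log2 change -1.06, SE 0.06, adjusted p = 6.69e-31) and in WT (log2 change -0.98, SE 0.05, adjusted p = 6.01e-30), the opposite direction to RBX1. With IgM, 3 were higher in Y691F than in WT and 8 lower, against 21.9% and 20.2% of all tested genes, and untreated 0 were higher and 6 lower, against 15.1% and 16.1%. The responses differed upward for 3, among them CUL1 (0.20), and downward for 3, against 14.7% and 11.0%.

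NRF2 (NFE2L2), which KEAP1 holds in check, rose with IgM in Y691F (log2 change 0.91, SE 0.04, adjusted p = 1.22e-37) and in WT (log2 change 0.70, SE 0.04, adjusted p = 1.86e-30). Of the 22 genes of NRF2 and its targets, 10 rose and 8 fell in Y691F, and 9 rose and 7 fell in WT, against 37.1% and 38.7% of all tested genes in Y691F and 38.4% and 38.5% in WT. SQSTM1, an autophagy receptor that binds KEAP1, had 1231 CPM in Y691F with IgM and 208 in Y691F untreated (log2 change 2.56, SE 0.03, adjusted p = 1.12e-69). In WT it had 1411 CPM with IgM and 156 untreated (log2 change 3.18, SE 0.03, adjusted p = 4.48e-75). FTL rose and TALDO1 fell in both forms. With IgM, 5 were higher in Y691F than in WT and 11 lower, against 21.9% and 20.2% of all tested genes, PGD (0.50) and SLC7A11 (0.94) being higher and FTL (-0.38) and ABCC1 (-0.44) lower. Untreated, 5 were higher and 8 lower, against 15.1% and 16.1%, and the responses differed upward for 6 and downward for 7, against 14.7% and 11.0%.

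Of 18 tested genes that encode reported substrates of the adaptors, RC3H2 among them, 8 were higher in Y691F than in WT with IgM and 4 lower, against 21.9% and 20.2% of all tested genes. Untreated, 4 were higher and 6 lower, against 15.1% and 16.1%. RC3H2, whose reads come from the construct as well, was among the higher ones in each state. WNK1, a target of KLHL2 and KLHL3, rose with IgM in Y691F (log2 change 0.92, SE 0.03, adjusted p = 6.13e-47) and in WT (log2 change 0.77, SE 0.03, adjusted p = 2.14e-41). EIF4EBP1, which encodes 4E-BP1, fell in Y691F (-0.85) and in WT (-1.06). SEC31A, a target of KLHL12, was higher in Y691F with IgM (log2 change 0.41, SE 0.03, adjusted p = 1.68e-20) and untreated (log2 change 0.33, SE 0.03, adjusted p = 5.12e-15). With IgM 9 rose and 5 fell in Y691F, against 37.1% and 38.7% of all tested genes, and 11 rose and 7 fell in WT, against 38.4% and 38.5%. The responses differed upward for 7 and downward for 1, against 14.7% and 11.0%, with a median difference of 0.12 against 0.01 over all tested genes. The downward one was RC3H2 (-0.15, SE 0.05, adjusted p = 0.00914), which was also among those that rose in WT (0.13, adjusted p = 0.000495). AURKA (log2 change 0.39, SE 0.05, adjusted p = 7.53e-09) and ACLY (log2 change 0.26, SE 0.04, adjusted p = 1.58e-07) were the clearest upward ones.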

How the data were processed

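Strand-specific polyA+ RNA-seq (dUTP marking, per the labels' protocols) of 12 U-2932 libraries was analysed. The table deposited by the authors lists, per the file headers, 2 values for every Ensembl gene in a library, a count and an RPKM. The counts deposited by the authors are whole numbers and were used for every test, and the deposited RPKM served only to set levels of different genes side by side. The submitters' processing notes name GRCh38 as the build and STAR 2.5.0b and DESeq2 as tools. For the read counter, its use of strand and the annotation, the sources used here give nothing, and a gene that overlaps another or has a pseudogene (KLHL2P1 had 118 counts in all, KLHL6-AS1 had 4) may share reads with it.

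Of 60675 genes, 15112 passed filterByExpr and were tested with the quasi-likelihood test of edgeR 4.0.16 (R 4.3.3, limma 3.58.1), with TMM factors of 0.939 to 1.07, robust fitting and 1 coefficient per group. P-values are 2-sided and adjusted by the Benjamini-Hochberg method over all tested genes, with a call at an adjusted p under 0.05. The SE is approximate and was derived from the log2 change and its F statistic (size over square root of F). The interaction is the IgM response in Y691F minus that in WT. The script was tested on simulated counts with known changes in a small share of genes of 1 group, equally up and down. Changes as widespread as those with IgM were not simulated. The biological coefficient of variation was 2.51%, and the chi-square over degrees of freedom between replicates was 1.43 to 2.42. Values above 1 show more spread than counting alone, and no library was treated as a repeat of another. They cannot tell independent cultures from repeated preparations of the same cells. The p-values measure the spread between these libraries.

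The members, the context lists and the rule for named genes were chosen with earlier results of these data known. Values in every library are given for KLHL6, CUL3, RBX1 and KEAP1, and for members with a mean of at least 1 CPM that were called with a log2 change of at least 0.5 in size between groups, or called in the interaction. Up to 4 genes per context list and contrast, those with the smallest adjusted p, are named. Promoters are from RefSeq on GRCh38.p14, where 36 of the 40 members were matched by symbol. The codon and the untranslated regions are from GENCODE 29. Alternatives were DESeq2 1.42.0 size factors and its Wald test, library totals alone, limma-voom, no filter, a filter of 1 CPM in 3 libraries, the replicate number as a block, and leaving out each library. They were not run for the context lists. The level of 1 further B cell marker is not reported here.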

Additional observations from a re-analysis of the deposited data

Results flagged for a closer look

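The IgM response differed between cells with Y691F and cells with WT Roquin2, by the test of the difference itself, for 8 of 29 tested members, 4 upward and 4 downward, against 14.7% and 11.0% of all tested genes. Each value is the log2 response in Y691F minus that in WT. It was 0.76 for KLHL6, 0.25 for KEAP1, 0.34 for KLHL2 and 1.02 for KLHL3. It was -0.35 for KLHL12, -0.23 for KLHL21, -0.39 for KLHL9 and -0.27 for KLHL8. The differences of KLHL2, KLHL3 and KLHL8 were not called under the Wald test of DESeq2 or without some single libraries, whereas those of KLHL6, KEAP1, KLHL9, KLHL12 and KLHL21 were called under every alternative run. The groups also differed in RC3H2 mRNA, at 206 ± 1.79 CPM in Y691F with IgM and 121 ± 1.80 in WT with IgM, and its part in these differences was not tested.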

How the results depend on the processing

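The 5 log2 changes of KLHL6 kept their direction and their side of the threshold in every alternative except 1: its IgM change in Y691F was -0.12 with library totals alone. The number of members called ranged, without single libraries, from 12 to 15 for Y691F against WT with IgM, 6 to 8 untreated, 21 to 24 for IgM in Y691F, 21 to 24 for IgM in WT and 6 to 9 for the difference of responses. The Wald test of DESeq2 called 5 members for the difference of responses, against 8. Directions of uncalled or small changes turned with library totals alone for CUL3 between the forms with IgM (-0.0060), KEAP1 untreated (0.0050), RBX1 untreated (0.0084), KEAP1 with IgM in Y691F (-0.098) and RBX1 with IgM in Y691F (-0.022). They also turned without single libraries: CUL3 with IgM ranged from -0.012 (without the first Y691F IgM library) to 0.072, KEAP1 untreated from -0.031 to 0.015 (without the first WT untreated library), and RBX1 untreated from -0.052 to 0.036 (without the second WT untreated library), with 0.022 without the third Y691F untreated library. The cause was not tested.

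Replicate numbers did not pair the samples: deviations of same-numbered libraries correlated between -0.0155 and 0.0302. With the replicate block, 14, 9, 23, 23 and 8 members were called in the 5 contrasts (forms with IgM, forms untreated, IgM in Y691F, IgM in WT, difference). Of the 9 called between untreated forms, 8 were also called without the block. The 84 member results followed were the calls without the block and every result of KLHL6, CUL3, RBX1 and KEAP1. Of these, 83 kept their call, KEAP1 with IgM in Y691F (adjusted p = 0.0537) being the other. Members under about 1 CPM rest on few reads per library.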
